A study of Homo sapiens with 8 samples.

Results

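The short and medium chain acyl-CoA synthetases are enzymes that join a small organic acid to coenzyme A. The genes described here were 8 listed genes of this kind (ACSS1, ACSS2, ACSS3, ACSF2, ACSF3, ACSM3, AACS and AASDH), kept where they had a row in the deposited expression table. All 8 had a row, among 14526 genes in the table. Total RNA was sequenced from a human cell line labelled HepG2, a line derived from a liver carcinoma, grown in DMEM with fetal bovine serum. The labels name no treatment for the control group (4 replicates), and the SB-treated group (4 replicates) was kept with 10 mM sodium benzoate (SB) for 24 h before harvest. The methods call the replicates biological, but neither they nor the labels say whether they were separate cultures, so the p-values measure the spread between these samples. All 8 libraries come from 1 cell line. Expression is given as RPKM, the reads on a gene divided by its length and by the library size.

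An acyl-CoA synthetase uses ATP to turn a free acid into an acyl-adenylate and then passes the acyl group to coenzyme A, and the resulting thioester can feed lipid synthesis, oxidation or the acylation of proteins. In liver, benzoate is activated to benzoyl-CoA mainly by medium chain synthetases of the ACSM family in mitochondria, and glycine N-acyltransferase then makes hippurate, which leaves in the urine. Acetate, propionate, malonate, butyrate and acetoacetate are handled by other members of the same large enzyme family. The study asked how cells respond to SB, a precursor of benzoyl-CoA, and the comparison here asks which of these synthetase transcripts differed after SB.

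ACSM3 was the only gene of the ACSM family with a row. ACSM1, ACSM2A, ACSM2B, ACSM4, ACSM5 and ACSM6 had no row, and neither did the glycine N-acyltransferase genes GLYAT, GLYATL1, GLYATL2 and GLYATL3, so the 10 genes closest to benzoate conjugation were not analysed here. The authors kept genes with CPM (counts scaled to library size) above 1 in at least 2 samples. The cell line label was checked against 20 hepatocyte marker genes, of which 16 had no row, among them ALB (albumin), AFP, APOA1, APOB, TTR and HNF4A. Those with a row included CPS1 (6.28 to 6.97 RPKM in control and 10.9 to 11.1 in SB-treated libraries), CYP2E1 (0.134 to 0.264 and 0.558 to 0.800) and TF (0.167 to 0.210 and 0.316 to 0.485). These 3 were higher in SB-treated cells by the test used below, and their part in the results was not tested. With 16 of the 20 markers lacking a row, the check did not bear the label out. The cells are called here by their label only. The summed level of the 2 leukocyte markers with a row (of 8 listed) was 2.09 to 2.34 RPKM in control and 2.18 to 3.14 in SB-treated libraries, and that of the 4 fibroblast markers with a row (of 8) was 6.63 to 8.97 and 6.62 to 6.98. Of these, CD68 (a macrophage marker) was higher by 0.23 and LUM (a fibroblast marker) by 0.26 on the log2 scale, COL3A1 (a fibroblast collagen) was lower by a log2 difference of -0.48, and the other 3 did not pass. Without control replicate 1, 2 fibroblast markers were lower. The part of these markers in the results was not tested.

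The libraries held 36990036 to 44878277 reads over all 14526 genes, as recovered from the RPKM values. Control replicate 1 stood apart from the other libraries. The chi-square per degree of freedom of its reads against those of each other control replicate was 33.4 to 38.4, compared with 1.52 to 3.80 for all other pairs within a group. Its distance from the other controls followed GC content, with Pearson's r of -0.684 across 13290 genes of this 1 library (a description, since genes are not replicates). Counts and calls that changed when control replicate 1 was left out are given beside the results.

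Promoter sequences show where transcription of the genes the results turn on begins. They are the 250 bases before the start site of the canonical transcript (RefSeq, GRCh38.p14), 5′ to 3′ on the gene's strand. RefSeq start sites were found for 6 of the 8 genes, but the only 1 for ACSF2 lay 42111 bases from its canonical start. Capitals mark GC boxes, the letters GGGCGG or their reverse complement, which are known as Sp1 sites. ACSS1 (chr20:25058140-25058389, minus strand), ACSS2 (chr20:34876362-34876611, plus strand) and ACSF3 (chr16:89093602-89093851, plus strand) are shown because ACSS1 and ACSF3 differed in opposite directions and ACSS2 is the close relative of ACSS1.
ACSS1: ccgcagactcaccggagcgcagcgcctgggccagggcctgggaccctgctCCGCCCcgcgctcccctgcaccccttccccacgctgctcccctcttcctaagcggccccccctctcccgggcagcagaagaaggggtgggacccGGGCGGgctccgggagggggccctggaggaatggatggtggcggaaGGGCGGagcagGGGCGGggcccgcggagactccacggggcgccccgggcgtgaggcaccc
ACSS2: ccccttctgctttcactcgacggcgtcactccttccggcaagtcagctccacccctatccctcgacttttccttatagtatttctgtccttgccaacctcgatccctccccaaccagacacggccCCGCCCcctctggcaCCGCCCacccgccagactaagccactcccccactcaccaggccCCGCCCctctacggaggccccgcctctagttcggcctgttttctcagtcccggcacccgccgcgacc
ACSF3: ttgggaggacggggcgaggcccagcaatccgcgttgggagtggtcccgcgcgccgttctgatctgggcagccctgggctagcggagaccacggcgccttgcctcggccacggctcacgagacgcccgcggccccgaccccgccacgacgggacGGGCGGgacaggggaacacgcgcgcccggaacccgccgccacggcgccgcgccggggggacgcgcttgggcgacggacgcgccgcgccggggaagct
The ACSS1 window held 4 GC boxes and was 77.2% G or C with 22 CpG dinucleotides. The ACSS2 window held 3 GC boxes, 64.8% G or C and 18 CpG. The ACSF3 window held 1 GC box, 78.0% G or C and 43 CpG, compared with a median of 58.0% and 11 CpG over 35116 promoters. A GC box was present in 42.6% of those promoters, on either strand. The SREBP motif TCACNCCAC, searched on both strands, was in none of the 3 windows and in 0.883% of all promoters. The CCAAT box (letters CCAAT), the E-box CACGTG and the TATA box TATAAA were also in none of the 3 windows, and were in 32.0%, 6.34% and 10.7% of all promoters. These matches describe letters in the windows only.

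Of the 8 synthetase genes, 1 was higher (ACSF3) and 2 were lower (ACSS1 and ACSF2) in SB-treated cells, and 5 did not pass the test. The test was limma fitted to log2(RPKM + 1) of all 14526 genes, and a gene was called at a Benjamini-Hochberg adjusted p below 0.05. Over all genes, 33.0% were higher and 32.6% were lower (65.6% in either direction), so the 3 of 8 genes that passed are below the share of all genes. The mean was lower in 6 genes and higher in 2. The median log2 fold change was -0.09 over the 8 genes and 0.00 over all genes, and the median size of the change was 0.10 against 0.20. Without control replicate 1, 4 genes were lower (ACSS1, ACSF2, AACS and ACSS2) and 1 was higher, compared with 75.5% of all genes in either direction, and voom on recovered reads without it called the same 4 lower (76.5% of all genes in either direction). With libraries scaled by total reads only, without the TMM factors, 2 were higher (ACSF3 and ACSS3) and 1 was lower (ACSS1), compared with 66.2% of all genes in either direction. That scaling raised the median log2 ratio of all genes by 0.11, and 65.1% of all calls were then higher, compared with 50.2%.

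**Figure D1:**
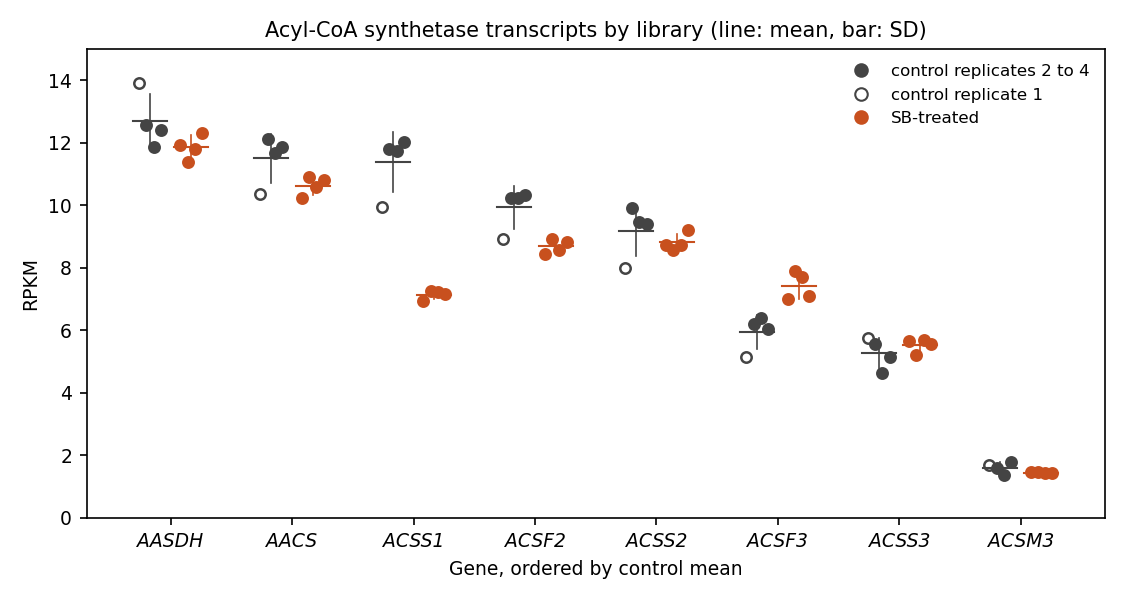
RPKM (vertical axis) of the 8 synthetase genes in each library, ordered by control mean, with control replicates in grey (replicate 1 open) and SB-treated replicates in orange. Horizontal lines are means and vertical bars SD (n = 4). ACSS1 falls from 9.95 to 12.05 in the controls to 6.93 to 7.25 in the SB-treated libraries, and ACSF3 is above all controls in every SB-treated library.

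ACSS1, which makes acetyl-CoA from acetate in mitochondria, was the member with the largest change. It lies at chr20:25006230-25058980 on the minus strand (hg38, GENCODE release 44). Its RPKM in control replicates 1 to 4 was 9.95, 11.8, 11.7 and 12.05, and in SB-treated replicates 1 to 4 it was 6.93, 7.25, 7.22 and 7.16. The groups did not overlap, and even the lowest control (replicate 1) was above every SB-treated library. The mean fell from 11.4 ± 0.963 to 7.14 ± 0.147 RPKM (SD, n = 4 each), a change of -37.3%. On the log2(RPKM + 1) scale the difference was -0.60 (SE 0.055, 95% interval -0.73 to -0.48, limma adjusted p = 1.21e-05). An exact two-sided permutation test of the 8 libraries gave p = 0.0286, the smallest that 4 against 4 allows. Only 2.74% of all genes had a larger fall, and ACSS1 was the 1 member past both the adjusted p and a log2 change of 0.5 in size, which 10.6% of all genes passed. The difference kept its direction and passed in each of 15 alternatives run, from -0.73 to -0.51. The gene carried 1070 to 1979 reads in each library, so counting error was small beside the difference. As with every gene here, RNA from bulk cells cannot tell fewer cells of a kind from less RNA per cell.

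ACSS2, which makes acetyl-CoA from acetate in the cytosol and nucleus, differed little. It lies on the same chromosome at chr20:34872146-34927962 on the plus strand. Its RPKM was 7.999, 9.90, 9.47 and 9.42 in control replicates 1 to 4 and 8.74, 8.58, 8.74 and 9.20 in the SB-treated replicates. All SB-treated values lay between control replicate 1 and control replicate 4, so the groups overlapped. The means were 9.20 ± 0.828 and 8.82 ± 0.268 RPKM (SD, n = 4 each), and the log2 difference was -0.05 (95% interval -0.18 to 0.08, limma adjusted p = 0.453). Without control replicate 1 the log2 difference was -0.11 with a limma adjusted p of 0.00928, and without the TMM factors it was 0.04, so neither its call nor its direction held across the alternatives.

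The levels of these acetate-activating enzymes changed order. ACSS2 stood at 0.804, 0.839, 0.807 and 0.782 of the ACSS1 level (RPKM over RPKM) in the controls and at 1.26, 1.18, 1.21 and 1.29 in the SB-treated libraries. ACSS1 was thus the higher of the pair in every control library and the lower in every SB-treated library. The log2 ratio rose from -0.31 ± 0.042 to 0.30 ± 0.054 (SD, n = 4 each), a difference of 0.61. An exact two-sided permutation test gave p = 0.0286, the smallest that 4 against 4 allows. The difference mostly restates the fall of ACSS1 (-0.60 on the log2(RPKM + 1) scale, with ACSS2 at -0.05), so the p is not separate evidence. A ratio within a library does not depend on the library's scaling. Control replicate 1, low in both genes, had a ratio within the range of the other controls.

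**Figure D2:**
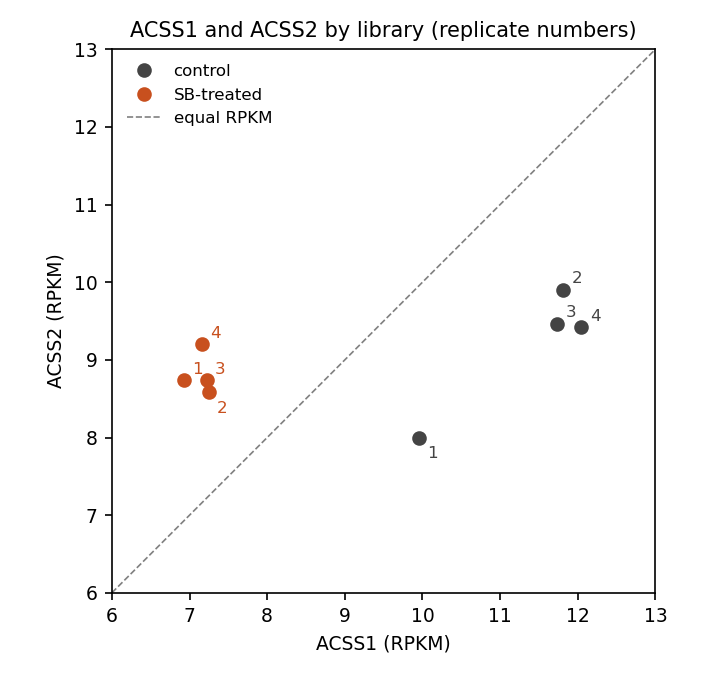
ACSS2 against ACSS1, both in RPKM, in each library, with replicate numbers beside the points and a dashed line where the levels are equal. The 4 controls (grey) lie below the line and the 4 SB-treated libraries (orange) above it, and the shift runs along the ACSS1 axis.

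ACSF3, the mitochondrial enzyme that makes malonyl-CoA from malonate, was the 1 gene that rose. It lies at chr16:89088375-89164121 on the plus strand. Its RPKM was 5.16, 6.21, 6.40 and 6.05 in control replicates 1 to 4 and 7.01, 7.90, 7.72 and 7.10 in the SB-treated replicates. Every SB-treated library was above every control. The mean rose from 5.96 ± 0.550 to 7.43 ± 0.442 RPKM (SD, n = 4 each), a change of 24.8%, and the log2 difference was 0.28 (SE 0.063, 95% interval 0.14 to 0.42, limma adjusted p = 0.00309, exact permutation p = 0.0286). It passed in each of the 15 alternatives, from 0.22 to 0.37, the lowest without control replicate 1. ACSS1 and ACSF3 were the 2 members whose groups did not overlap, compared with 61.5% of all genes. On the same strand, 1175 of the 14575 annotated exon bases of ACSF3 (all GENCODE transcripts) are shared with LINC00304, which had no row. The counted length, as recovered from the RPKM values, was 4296 bases, so whether the shared bases were counted is not known.

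ACSF2, a mitochondrial synthetase that takes medium chain acids, fell by a smaller amount. It lies at chr17:50426158-50474845 on the plus strand. Its RPKM was 8.92, 10.2, 10.3 and 10.3 in control replicates 1 to 4 and 8.46, 8.93, 8.59 and 8.83 in the SB-treated replicates. The groups overlapped only through control replicate 1, the other controls were above every SB-treated library, and once that library was left out 73.8% of all genes did not overlap. The means were 9.94 ± 0.680 and 8.70 ± 0.217 RPKM (SD, n = 4 each), with a log2 difference of -0.17 (SE 0.048, 95% interval -0.28 to -0.06, limma adjusted p = 0.0110). An exact permutation test gave p = 0.0571. The call was lost without the TMM factors, where the log2 difference was -0.08 (limma adjusted p = 0.210). Its annotated exons (5797 bases, against a counted length of 2424) share 270 bases with CHAD on the opposite strand. For this gene and the others with overlaps, it is not known whether the shared bases were counted. The strand setting of the counting was not given in the sources used here either. Whether reads of overlapping genes enter these values is therefore not known.

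AACS, the cytosolic enzyme that activates acetoacetate for lipid synthesis, lies at chr12:125065434-125143333 on the plus strand. Its RPKM was 10.4, 12.1, 11.7 and 11.9 in control replicates 1 to 4 and 10.2, 10.9, 10.6 and 10.8 in the SB-treated replicates. As in ACSF2, control replicate 1 alone joined the groups. The means were 11.5 ± 0.782 and 10.6 ± 0.290 RPKM (SD, n = 4 each), and the log2 difference of -0.10 did not pass (95% interval -0.21 to 0.01, limma adjusted p = 0.0902). Without control replicate 1 it was -0.15 and passed (limma adjusted p = 0.00117), in a fit where 37.9% of all genes were lower.

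The other 3 genes did not pass. AASDH, an adenylate-forming relative of these enzymes whose role in mammalian cells is not well defined, lies at chr4:56338287-56387508 on the minus strand and had the highest level of the 8. It ranged from 11.9 to 13.9 RPKM in the controls and from 11.4 to 12.3 in the SB-treated libraries (log2 difference -0.09, 95% interval -0.20 to 0.02, limma adjusted p = 0.132), and the difference was 0.01 without the TMM factors. ACSS3, a mitochondrial synthetase that prefers propionate, lies at chr12:80936414-81261210 on the plus strand. It ranged from 4.65 to 5.76 RPKM in the controls and from 5.21 to 5.70 in the SB-treated libraries, all within the control range (log2 difference 0.06, 95% interval -0.07 to 0.19, limma adjusted p = 0.373). Without the TMM factors it was 0.15 and passed (limma adjusted p = 0.0384). Its annotated exons (18465 bases, against a counted length of 3033) share 1686 bases with PPFIA2 and 294 with LIN7A on the opposite strand. Whether those bases were counted is not known. PPFIA2 rose from 0.347 to 0.674 RPKM in the same comparison. ACSM3, the mitochondrial medium chain synthetase known for butyrate, lies at chr16:20610243-20797581 on the plus strand. It had the lowest level, 1.38 to 1.77 RPKM in the controls and 1.42 to 1.46 in the SB-treated libraries, resting on 113 to 166 reads in a library (log2 difference -0.09, 95% interval -0.20 to 0.01, limma adjusted p = 0.106). All its SB-treated values lay within the control range, and the difference passed only when control replicate 3 was left out (-0.14, limma adjusted p = 0.0107, in a fit that called 61.8% of all genes). Its annotated exons (7510 bases, against a counted length of 2291) share 867 bases with ERI2 on the opposite strand. ERI2 had 11.9 RPKM in the controls and 13.5 after SB.

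**Figure D3:**
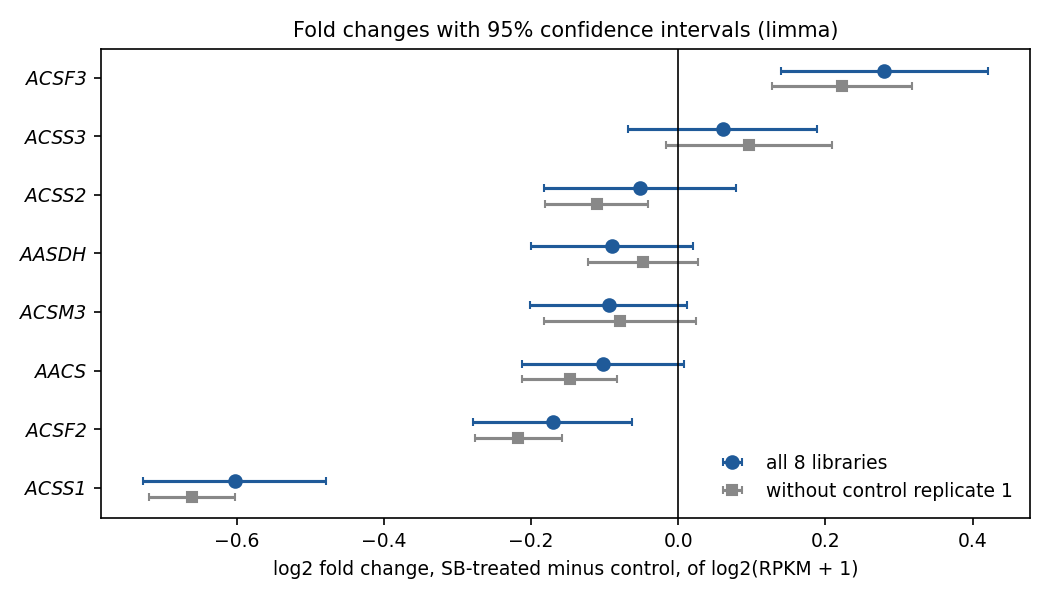
Log2 fold change of each synthetase gene (horizontal axis, SB-treated minus control, of log2(RPKM + 1)) with its 95% confidence interval, from limma on all 8 libraries (blue circles) and without control replicate 1 (grey squares). ACSS1 is at -0.60 and ACSF3 at 0.28, and AACS and ACSS2 have intervals that include 0 only when control replicate 1 is kept.

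By level, the control order was AASDH, AACS, ACSS1, ACSF2, ACSS2, ACSF3, ACSS3 and ACSM3. Ranges of neighbours in that order overlapped except between ACSS2 and ACSF3 and between ACSS3 and ACSM3. In SB-treated cells the order was AASDH, AACS, ACSS2, ACSF2, ACSF3, ACSS1, ACSS3 and ACSM3, and neighbours overlapped only for ACSS2 with ACSF2 and for ACSF3 with ACSS1. ACSS1 was above ACSF3 in 4 of 4 control libraries and in 1 of 4 SB-treated libraries. The summed RPKM of the 8 genes was 67.6 ± 2.75 in the controls and 61.6 ± 0.840 in SB-treated cells (SD, n = 4 each), a change of -8.89% given as a description. Of that sum, ACSS1 made up 16.8% in the controls and 11.6% after SB, and ACSF3 8.80% and 12.1%. The shares of AACS (17.02% and 17.3%) and AASDH (18.9% and 19.3%) moved by less than 1 control SD. The 5 genes of mitochondrial enzymes (ACSS1, ACSS3, ACSF2, ACSF3 and ACSM3) summed to 34.2 ± 1.85 and 30.2 ± 0.578 RPKM (-11.5%). The other 3 genes (ACSS2, AACS and AASDH) summed to 33.4 ± 0.983 and 31.3 ± 0.701 RPKM (-6.26%). The first sum does not describe a fall of all its genes. Within it the mean of ACSS1 went from 11.4 to 7.14 RPKM, while the means of ACSF3 and ACSS3 rose.

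The control SD was larger than the SB-treated SD in 8 of 8 genes, and in 3 of 8 without control replicate 1. Control replicate 1 was the lowest control in 5 genes and the highest in 2. It was lower than the mean of the other controls by a log2 ratio of -0.27 in ACSF3 (60.4% GC in the canonical transcript), -0.26 in ACSS2 (53.8%), -0.25 in ACSS1 (56.4%), and -0.20 in both ACSF2 (56.4%) and AACS (55.1%). It was higher in AASDH (0.18, 39.5% GC), ACSS3 (0.17, 36.4%) and ACSM3 (0.10, 39.2%). With the GC trend of each library removed, ACSS1 differed by -0.63, ACSF2 by -0.20 and ACSF3 by 0.23 on the log2 scale, and AACS passed (limma adjusted p = 0.00238), in a fit that called 73.5% of the genes with a GC value.

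**Figure D4:**
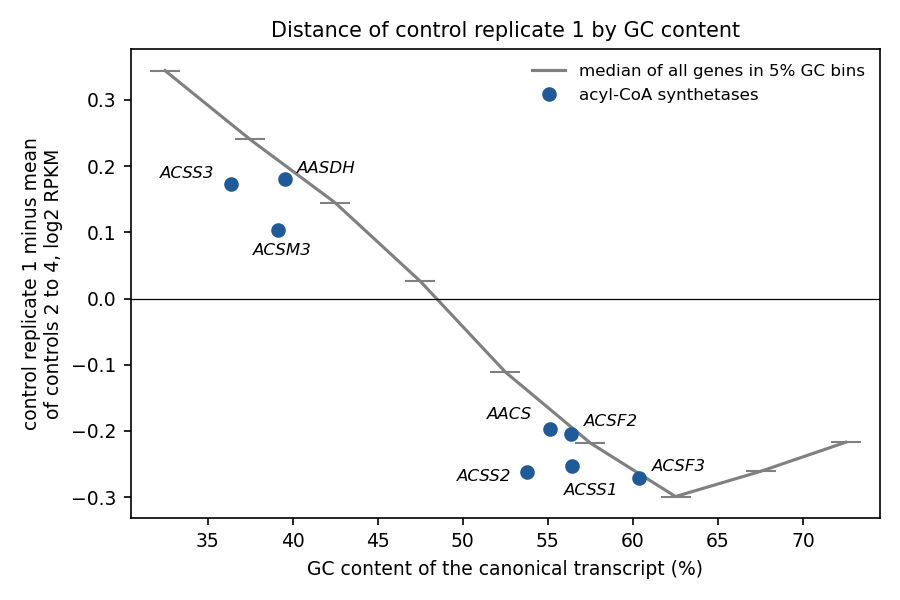
Log2 RPKM of control replicate 1 minus the mean of control replicates 2 to 4 (vertical axis) against GC content of the canonical transcript in percent, for the 8 synthetase genes (points) and as medians of all genes in bins of GC (grey line). The 5 genes above 50% GC lie below 0 and the 3 genes under 40% GC lie above it.

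The genes most like each member over the 8 samples were found by Pearson's r of log2(RPKM + 1) across 12544 genes, as a description. Those closest to ACSS1 were AKR7A2 and PSMD2 (both r = 0.999). For ACSF3 they were SETD1A (0.994) and CSNK1D (0.992), for ACSF2 GPR108 and MPND (both 0.996), and for AACS YIF1A (0.993). ACSS2 had lower values, with COQ6 at 0.958 and POLR2J3 at 0.951. All 8 points share the group difference and control replicate 1, and within groups the r of ACSS1 with AKR7A2 was 0.985.

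Related genes were described by the same counts, to be read beside the shares over all genes, 33.0% higher and 32.6% lower. Without control replicate 1, 75.5% of all genes passed in either direction and 37.9% were lower. Among the 12 long chain acyl-CoA synthetases with a row (of 13), which activate longer fatty acids, 5 were higher, 4 were lower and 3 did not pass, and without control replicate 1 the counts were 5 and 6. SLC27A4 rose by 0.33 and ACSL3 fell by 0.33 on the log2 scale. Among 10 genes of coenzyme A synthesis and import, which supply the cosubstrate of ACSS1 and its relatives, 4 were higher and 3 were lower (5 and 3 without control replicate 1). PANK3, a pantothenate kinase, rose by 0.43 and PPCDC, which acts later in that pathway, fell by 0.78. Among 9 genes listed as acyl-CoA thioesterases, 3 were higher and 2 were lower. Thioesterases undo the synthetases' reaction, but the list also held BAAT, an acyltransferase that passes acyl groups from coenzyme A to amino acids. The largest changes in each direction were BAAT at 0.33 (means of 0.136 and 0.427 RPKM) and ACOT7 at -0.42. Among 7 monocarboxylate transporters and partners with a row, which carry small acids into cells, 4 were higher and 2 were lower (5 and 2 without control replicate 1). The largest changes in each direction were SLC16A8 at 0.41 (means of 0.692 and 1.25 RPKM) and the BSG chaperone at -0.40.

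The neighbours of ACSS1 and ACSS2 in acetyl-CoA supply were taken as a list of 9 genes. It held genes of pyruvate dehydrogenase, citrate export and cleavage, and acetylcarnitine formation, and also ACO1, a cytosolic aconitase that does not itself make acetyl-CoA. Of these 9 genes, 8 were lower (ACO1 among them, at -0.46) and none was higher, with a median log2 difference of -0.37. Over all genes, 32.6% were lower and 33.0% were higher, and 37.9% were lower without control replicate 1. SLC25A1, the mitochondrial citrate carrier, fell by 0.68 (limma adjusted p = 5.41e-05), and PDHB, a pyruvate dehydrogenase subunit, fell by 0.59 (limma adjusted p = 9.64e-07). The 1 that did not pass was CRAT, carnitine acetyltransferase, at -0.10, and without control replicate 1 it was at -0.17 and all 9 were lower (limma adjusted p of CRAT = 0.00180). Around ACSF3 and ACSS3, among 12 genes that handle propionyl-CoA and malonyl-CoA, 2 were higher and 7 were lower (2 and 8 without control replicate 1). MLYCD, which decarboxylates the malonyl-CoA that ACSF3 makes, rose by 0.24, and PCCB, a subunit of the propionyl-CoA carboxylase downstream of ACSS3, fell by 0.43. Around AACS, among 7 ketone body genes with a row, 1 was higher (BDH1, 0.21) and 2 were lower (ACAT1, -0.50, and BDH2, -0.30), and without control replicate 1 the counts were 2 and 3. ACSS2 and AACS are known targets of SREBP transcription factors. Among 27 other SREBP pathway and target genes with a row, 17 were higher and 5 were lower with a median of 0.28, and HMGCS1 rose by 0.82. ACSS2 and AACS themselves were at -0.05 and -0.10 and did not pass. Without control replicate 1 the list's counts were 18 and 5. In that fit ACSS2 (-0.11, limma adjusted p = 0.00928) and AACS (-0.15, limma adjusted p = 0.00117) passed as lower. The difference between ACSS2 or AACS and that list was not tested.

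**Figure D5:**
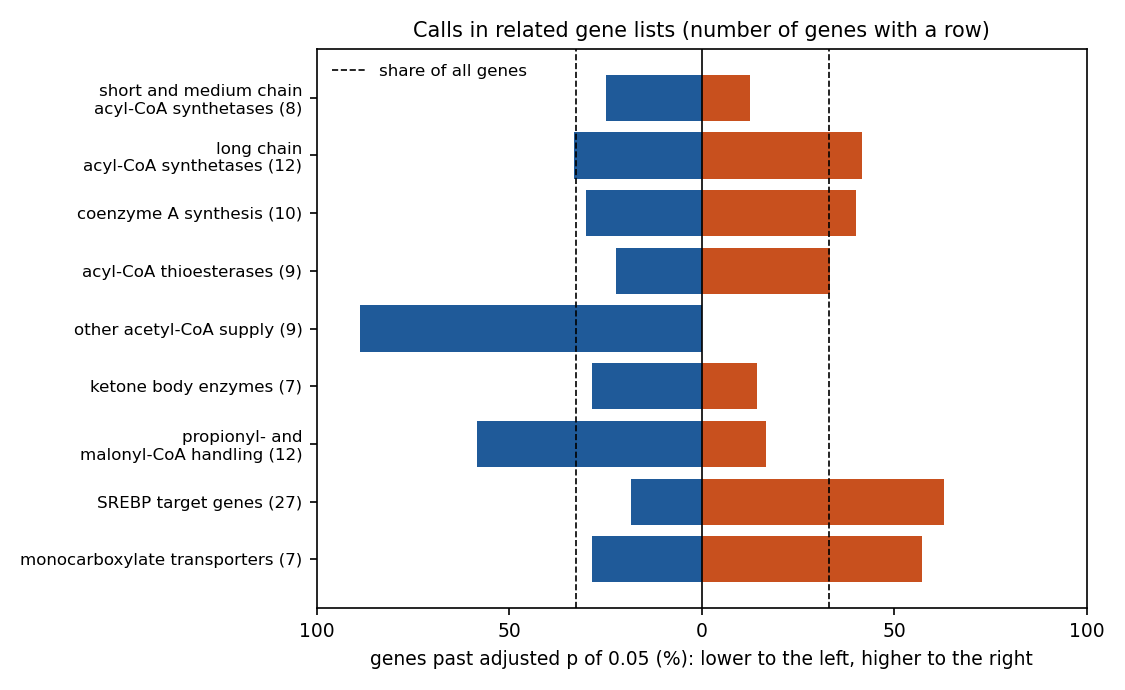
Share of genes past an adjusted p of 0.05 (percent, limma), lower in SB-treated cells to the left in blue and higher to the right in orange, for the synthetases and 8 related lists, with the number of genes with a row in brackets. Dashed lines are the shares over all genes, 32.6% lower and 33.0% higher. The other acetyl-CoA supply list, which includes the aconitase gene ACO1, reaches 8 of 9 genes lower, and the synthetases lie inside both lines.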

How the data were processed

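Total RNA from 4 control and 4 SB-treated replicates was sequenced by the authors as 50 base single reads from a stranded total RNA kit. Per the methods and the submitters' processing notes, reads were mapped to hg38 with TopHat2 2.1.0 and counted with featureCounts 1.5.0, and edgeR 3.16.5 scaled the libraries by TMM after dropping genes that did not exceed 1 CPM in at least 2 samples. The authors deposited RPKM values, which were used here. Their own fold changes, p-values, FDR and mean log2 CPM stand beside them and were not used. These 4 columns aside, the number of columns left unused was 0. ChIP-seq data were not analysed here.

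Whole reads were recovered from the RPKM values for 100% of genes, within 0.03 of a whole number. They set the depth, the TMM-free scaling and the voom fit. The groups were compared with limma 3.58.1 in R 4.3.3 (lmFit and eBayes) on log2(RPKM + 1), with all 14526 genes and no filter. The pseudocount understates changes of low genes. Members, lists and named genes (each member, and up to 3 genes per direction and list with the largest change that passed) were chosen with earlier results of these data known. Genes singled out beyond that rule (PPFIA2, ERI2 and CRAT) were chosen after their values were seen. Scripts were tested on simulated data. Annotation was GENCODE release 44, promoters RefSeq, and other steps used Python 3.11.15. Alternatives were a pseudocount of 0.1, no TMM factors, a mean of at least 1 RPKM, voom, the replicate number as a block, and each library left out. A GC correction and voom without control replicate 1 were chosen after seeing the data. Some results are not reported here.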

Additional observations from a re-analysis of the deposited data

Results flagged for a closer look

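Control replicate 1 was far below the other controls in ACSS1 and in ACSF2. The distance to its nearest neighbour, as a share of the control range, was taken on the log2(RPKM + 1) scale (Dixon's ratio). It was 0.861 in ACSS1 (9.95 against 11.7 to 12.05 RPKM) and 0.948 in ACSF2 (8.92 against 10.2 to 10.3 RPKM). These were 2 of 18 groups of 4 examined, where chance alone would give 0.9 if the groups were independent. They share the same libraries, so the 2 counts cannot be compared as a test. Control replicate 1 also stood apart over all genes, as given above. Without this library ACSS1 differed by -0.66 and ACSF2 by -0.22 on the log2 scale.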

How the results depend on the processing

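Without the TMM factors, 2 synthetase genes were higher and 1 was lower, the difference of ACSS2 turned to 0.043 and that of AASDH to 0.0076, and the counts over all genes went from 4787 higher and 4740 lower to 6253 and 3357. Voom without control replicate 1, an alternative chosen after seeing the data, gave 4 lower members. Leaving out each library in turn gave 1 to 1 higher and 2 to 4 lower members, the 4 without control replicate 1, and 4311 to 5459 higher and 4285 to 5511 lower genes. The log2 ratio of ACSS2 to ACSS1 then differed by 0.59 to 0.63. The cause of these changes was not tested. ACSS1 and ACSF3 kept their direction and call in all 15 alternatives.

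Same-numbered replicates had correlations of 0.410, 0.368, 0.196 and -0.183 in their deviations (mean 0.198), compared with a mean of -0.058 for other pairs. These values cannot settle whether the numbers mark pairs, and the main test used no pairing. With the replicate block, AACS passed (limma adjusted p = 0.0499) and no other member's call changed, and the ratio difference of 0.61 had an exact p of 0.125, the smallest that 4 pairs allow. Genes with few reads, ACSM3 among these, are limited by depth.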
